A study of Mus musculus with 10 samples.

Results

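The semaphorins, plexins and neuropilins were the genes of the deposited table whose Ensembl ID carries, in the GENCODE M21 annotation, a symbol of semaphorin classes 3 to 7, of a plexin (a to d) or of neuropilin 1 or 2. They numbered 30 of 18047 genes, namely 19 semaphorins, 8 plexins, 2 neuropilins and the antisense RNA Plxna4os1, whose symbol matches the plexin pattern. Sema5b, Plxnb3, Plxna4os2 and Plxna4os3 also match it in the annotation and were not analysed here. The family was chosen by name with the KO-WT differences of these libraries known, and Sema7a was put first because its normalized counts were higher in KO tumours; its values are therefore a description, with no test.

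The 10 sequenced samples came from tumours of 4T1, a transplantable line of mammary carcinoma cells from BALB/c mice. The groups were 5 libraries from tumours of KO cells, in which a gene had been knocked out, and 5 libraries from tumours of WT cells. Tumours of both groups were harvested 3 weeks after implantation in BALB/c mice and taken as frozen sections. The labels give neither the age of the mice, nor the number of KO clones, nor the site of implantation. They also tie no library to a named animal, so each p-value below sets a difference against the spread between these libraries. Libraries held 8609756 to 16066866 reads in the KO group and 11772430 to 19934428 reads in the WT group, as recovered from the normalized counts. All 10 libraries carry 1 batch number, but the names of WT1 to WT4 and of KO5 have a prefix (RESUB) that the others lack, and WT2 and WT5 share the library number 170. Carcinoma epithelium markers (Epcam, Krt8, Krt18, Krt14, Cdh1 and Rab25, 6 of 6 in the table, none at 0) summed to 11363 to 15629 normalized counts in KO libraries and 15872 to 24878 in WT libraries, without overlap. Keratinocyte and skeletal muscle markers were present in part of the libraries, and their sums stand beside the genes they move with. In such bulk tissue, fewer cells of a type and less RNA per cell cannot be told apart.

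Semaphorins are secreted or membrane-bound proteins that share the sema domain and were first known as guidance cues of growing axons. Most act through plexins, transmembrane receptors whose intracellular part inactivates small GTPases of the Rap and R-Ras kind. Most secreted class 3 semaphorins first bind a neuropilin, a co-receptor that also binds growth factors of the VEGF family. In tumours the family is known for its parts in vessel growth, cell migration and immune cell behaviour.

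Sema7a encodes a membrane protein held by a lipid (GPI) anchor, which binds plexin C1 and integrins of the beta 1 chain and is known from activated T cells and myeloid cells. The gene lies at chr9:57940112-57962865 on the plus strand of GRCm38, and none of its exonic bases are shared with another annotated gene. It had 790.0, 2214, 1192, 1139 and 1559 normalized counts in KO1 to KO5, against 558, 331.5, 524, 818 and 433 in WT1 to WT5. KO2 was the highest library and WT2 the lowest. The groups overlapped in 1 place: WT4 was above KO1, while the other 4 KO libraries were above every WT library. Mean levels were 1379 ± 541 normalized counts in KO tumours and 533 ± 182 in WT tumours (SD, n = 5 each), a ratio of 2.59. On the scale of log2(normalized count + 1) the fitted KO minus WT difference was 1.35 ± 0.29 (SE).

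The Sema7a difference, on which the gene was chosen, lay between 0.94 and 1.55 on the log2 scale in the 25 alternative settings. These settings reuse the same libraries, so the range is a description and adds no support. The lowest value, 0.94, came without WT2, WT3 and WT5, which leaves WT1 and WT4 as the WT group. Leaving out single libraries gave 1.16 (without KO2) to 1.53 (without KO1). Within the 4 KO libraries and 1 WT library without the RESUB prefix the difference was 1.52, and within the 1 KO library and 4 WT libraries with it, 1.55. With WT2 and WT5 averaged as 1 library it was 1.24. The summed markers of cell types that can express the gene stand beside these values. T cell markers (6 of 6 listed, none at 0) summed to 291 to 754 normalized counts in KO libraries and 206 to 494 in WT libraries. All 6 had a positive KO minus WT difference, with a median of 0.60 on the log2 scale. Natural killer cell markers (5 of 5, none at 0) summed to 171 to 347 in KO libraries and 92.7 to 176 in WT libraries, and macrophage markers (5 of 5, none at 0) to 9130 to 13040 in KO libraries and 6028 to 13779 in WT libraries. Of the natural killer cell markers 3 were higher and 2 lower in KO tumours (median 0.56). Of the macrophage markers 4 were higher and 1 lower (median 0.19). Neutrophil markers (5 of 5, none at 0) summed to 931 to 2536 in KO libraries and 519 to 2854 in WT libraries. All 5 had a positive KO minus WT difference, with a median of 0.63 on the log2 scale. Among KO libraries their sum was highest in KO2, as for Sema7a. Among WT libraries it was 1922 in WT2, the lowest for Sema7a, and 770 in WT4, the highest for Sema7a. The part of these cells, and of the carcinoma cells with their lower marker sum in KO tumours, in the Sema7a values was not tested.

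**Figure D1:**
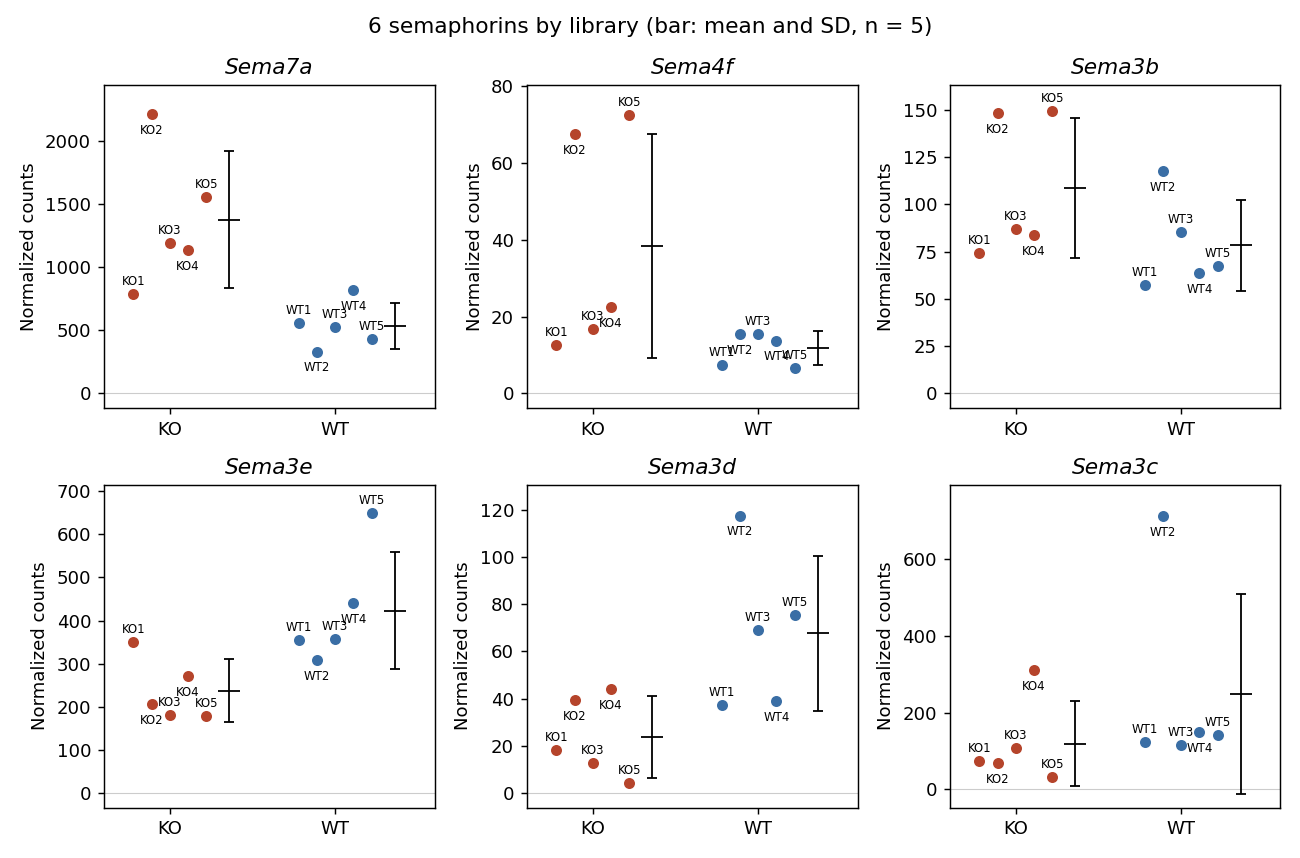
Normalized counts (vertical axes, linear) of 6 semaphorins in each library, KO left of WT in each panel; points are libraries and the black bars are the mean and SD (n = 5). For Sema7a, 4 of 5 KO libraries lie above every WT library, whereas the mean of Sema4f in KO is carried by KO2 and KO5 and that of Sema3c in WT by WT2.

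The 250 bases before the RefSeq start of 3 genes are shown: those of Sema7a, of Sema4f, the member with the highest fitted KO minus WT difference, and of Sema3e, which had the smallest p among the other members. They come from the RefSeq promoter table (GRCm38.p6), in which 24 of the 30 members had an entry. Each runs 5′ to 3′ on the gene's own strand and ends at the base before the start, and each start equals that of GENCODE M21. The windows are chr9:57939862-57940111 (plus strand) for Sema7a, chr6:82939770-82940019 (minus strand) for Sema4f and chr5:14025026-14025275 (plus strand) for Sema3e. Capitals mark every match, on either strand, to the 6 motifs searched, which were the TATA box TATAAA, the CAAT box CCAAT, the GC box GGGCGG, the E-box forms CACGTG and CAGGTG, and the AP-1 site TGANTCA.
Sema7a: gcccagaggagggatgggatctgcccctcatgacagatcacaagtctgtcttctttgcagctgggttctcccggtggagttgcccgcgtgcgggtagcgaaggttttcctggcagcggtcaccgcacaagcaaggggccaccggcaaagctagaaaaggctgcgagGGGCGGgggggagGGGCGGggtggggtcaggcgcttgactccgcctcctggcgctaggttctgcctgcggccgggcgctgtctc
Sema4f: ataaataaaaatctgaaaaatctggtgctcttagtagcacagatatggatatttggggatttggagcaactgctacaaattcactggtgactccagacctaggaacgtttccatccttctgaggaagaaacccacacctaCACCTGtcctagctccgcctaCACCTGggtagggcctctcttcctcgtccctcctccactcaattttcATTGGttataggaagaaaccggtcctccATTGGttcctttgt
Sema3e: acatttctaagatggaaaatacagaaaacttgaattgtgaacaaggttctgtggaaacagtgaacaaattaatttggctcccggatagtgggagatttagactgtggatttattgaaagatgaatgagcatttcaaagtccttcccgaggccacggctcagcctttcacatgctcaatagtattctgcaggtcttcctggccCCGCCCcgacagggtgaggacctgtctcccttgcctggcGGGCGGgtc
Sema7a had GGGCGG at bases -84 to -79 and -71 to -66 from its start, and 17 CpG dinucleotides in a window of 66.4% GC, against a median of 6 CpG over the 32851 windows of 27025 genes in the table. Sema3e had GGGCGG at -48 to -43 and -9 to -4, with 7 CpG at 48.0% GC. Sema4f had CAGGTG (read as CACCTG) at -110 to -105 and -89 to -84 and CCAAT (read as ATTGG) at -42 to -38 and -14 to -10, with 4 CpG at 46.0% GC. Of all windows 32.7% hold GGGCGG, 33.9% CCAAT, 17.2% CAGGTG, 12.4% TATAAA, 6.02% CACGTG and 6.75% TGANTCA. A match describes these letters and shows no binding.

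Over the whole family there was no shared direction in the limma fit over all 10 libraries. Of the 30 members, 15 were higher and 15 lower in KO tumours, with a median log2 difference of 0.00, against 8804 higher and 9171 lower and a median of -0.01 over the 17975 genes tested. This split moved with the setting. Within the libraries with the RESUB prefix 6 members were higher and 24 lower, and within those without it 20 were higher and 10 lower. With the prefix as a term 10 were higher and 20 lower. Leaving out WT2 gave 9 higher and 21 lower, and leaving out KO5 gave 21 higher and 9 lower. Sample weights also gave 21 higher and 9 lower. All 30 passed the filter of a mean of 10 normalized counts. With limma and Benjamini-Hochberg adjustment over all genes, 0 members had an adjusted p below 0.05, where 1 gene of all tested did (0.00556%). edgeR's quasi-likelihood test called 0 members and likewise 0.00556% of all genes. At an unadjusted p below 0.05, 1 of the 29 members other than Sema7a was higher in KO tumours (Sema4f; 2.82% of all genes were) and 2 were lower (Sema3e and Sema3d; 3.67% of all genes were). The KO and WT libraries overlapped for every one of the 30 members, and they did not overlap for 1.42% of all genes. At so low a share, overlap in all 30 members does not set the family apart. DESeq2, which called 0.673% of all genes, called none of the 29 other members. It gave no p for Sema3c, which had a DESeq2 log2 difference of -1.07 and so could not be called. Among the 29, limma with sample weights, which called 2.27% of all genes, called 1, Sema4f. Both DESeq2 and limma with sample weights called Sema7a as well, from which nothing is read since its difference had put it first. For 17 of the 30 members the 95% interval of the difference lay within 1 log2 unit of 0, as it did for 12049 of all genes tested.

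**Figure D2:**
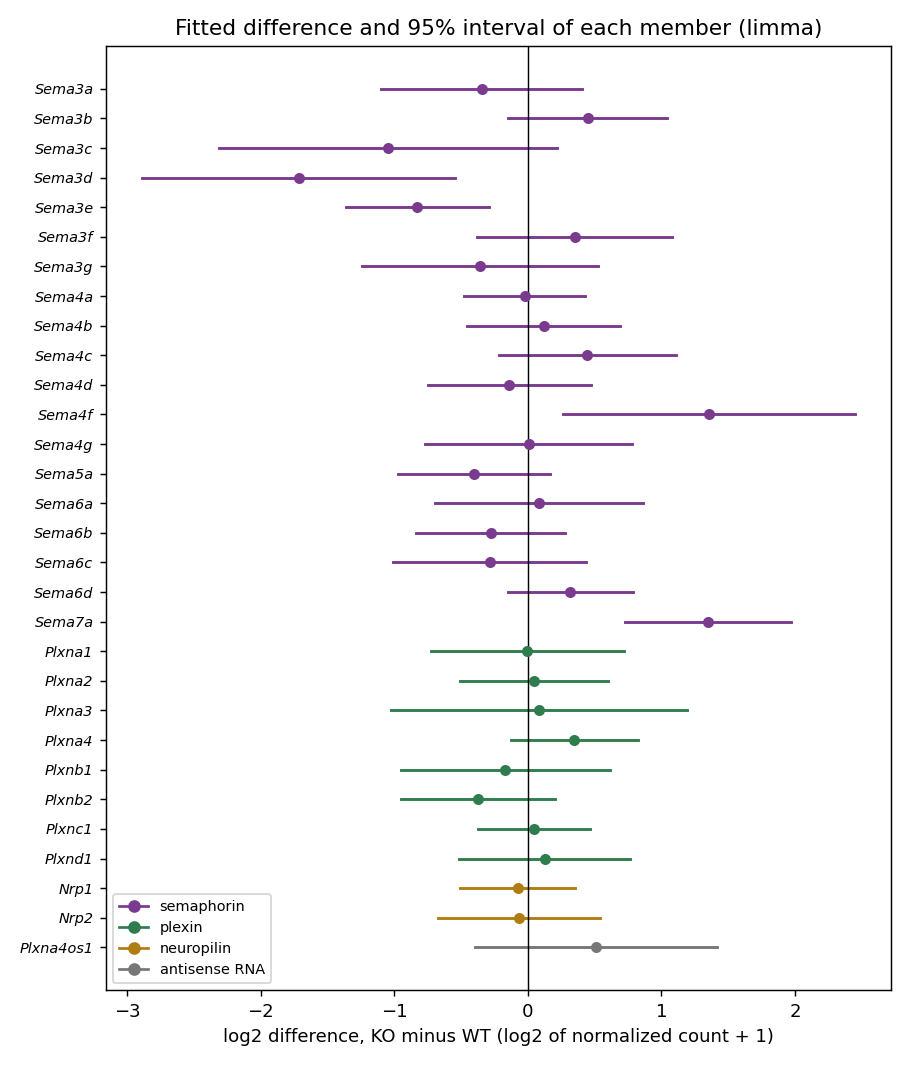
Fitted log2 difference, KO minus WT (horizontal axis, on log2 of normalized count + 1), with its 95% interval for the 30 members; colours give semaphorins, plexins, neuropilins and the antisense RNA. The 8 plexins and 2 neuropilins lie between -0.37 and 0.35, while semaphorins range from -1.72 (Sema3d) to 1.36 (Sema4f); the interval of Sema7a is a description, since the gene was chosen on this difference.

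The secreted class 3 semaphorins had 2 members higher and 5 lower in KO tumours, with a median log2 difference of -0.36. Sema3e, which binds plexin D1 without a neuropilin and is known for repelling growing vessels, had 349.5, 207, 180.0, 272 and 179 normalized counts in KO1 to KO5, against 355, 309, 358, 440.2 and 650.2 in WT1 to WT5. KO1 overlapped the WT libraries and the other 4 KO libraries were below all of them. Its difference was -0.83 ± 0.25 (SE; 95% interval -1.36 to -0.29), with a limma adjusted p of 0.545. Across all alternatives the difference lay between -1.41 and -0.66, with adjusted p from 0.0658 to 0.9995. It was -1.41 within the libraries without the RESUB prefix and -1.01 within those with it.

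Sema3d, a secreted semaphorin known from heart and vessel development, had 18.2, 39.4, 12.7, 43.9 and 4.37 normalized counts in KO1 to KO5, against 37.4, 117, 68.9, 39.1 and 75.3 in WT1 to WT5. KO2 and KO4 were just above WT1 and WT4, and WT2, WT3 and WT5 were above every KO library. The difference was -1.72 ± 0.54 (SE), adjusted p = 0.589 by limma. Those 3 WT libraries were also the ones with keratinocyte markers (Krt1, Krt10, Lor, Flg2, Dsg1a and Krtdap, 6 of 6 in the table), which summed to 20.95 to 30.9 normalized counts in KO libraries, against 473 in WT2, 4728 in WT3, 2794 in WT5, 34.1 in WT1 and 24.6 in WT4. Krt1, Lor, Flg2, Dsg1a and Krtdap were each at 0 in 3 to 7 of the 10 libraries. Without WT2, WT3 and WT5 the Sema3d difference was -1.04, and that of Sema3e was -0.78. Sema3d was -1.54 within the libraries without the RESUB prefix, -3.48 within those with it and -0.76 with sample weights; it rested on 479 reads over all libraries.

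Sema3c, a neuropilin-binding semaphorin that also acts on the developing heart outflow tract, had 72.7, 69.4, 108, 311 and 32.3 normalized counts in KO1 to KO5, against 123, 712, 117, 148 and 141 in WT1 to WT5. KO4 and WT2 stood far above the rest of their groups, and apart from KO4 the KO libraries were all below the lowest WT library. The difference was -1.04 ± 0.59 (SE), with a limma adjusted p of 0.838, -0.56 without WT2 and -1.49 without KO4. It was -0.30 within the libraries without the RESUB prefix and -2.58 within those with it. KO4 and WT2 also had the highest sums of adipocyte markers in their groups (Adipoq, Plin1, Lep, Fabp4 and Cidec, 5 of 5 in the table, Lep at 0 in 2 libraries), 3078 normalized counts in KO4 and 5571 in WT2, against 450.2 to 1590.3 in the other KO and 396 to 2063 in the other WT libraries. Skeletal muscle markers (6 of 6; Acta1, Myh4 and Ckm at 0 in 1 library) summed to 3709 in KO4 and 208 to 4716 over the KO libraries, against 96295 in WT2 and at most 9567 in the other WT libraries. The part of these tissues in the Sema3c and Sema3d values was not tested.

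The other class 3 genes had smaller differences. Sema3b, known as a tumour suppressor of human lung, had 74.1, 148, 87.2, 83.8 and 149 normalized counts in KO1 to KO5, against 57.3, 117, 85.4, 63.7 and 67.6 in WT1 to WT5. KO2 and KO5 were above every WT library and the remaining ones overlapped (0.45 ± 0.27, SE, adjusted p = 0.871), and the difference was 0.48 within the libraries without the RESUB prefix and 0.93 within those with it. Sema3f, the ligand of neuropilin 2 and the class 3 gene with the highest level per kb, had 1179, 1489, 1758, 1109.8 and 944 normalized counts in KO1 to KO5, against 730.5, 507, 1474, 2105 and 834 in WT1 to WT5. Its WT libraries spread wider than its KO libraries and enclosed all of them (0.35 ± 0.34, SE, adjusted p = 0.938), with 0.70 within the libraries without the RESUB prefix and -0.13 within those with it. Sema3a, the classical collapsing cue for axons, ranged over 52.0 to 203 normalized counts in KO libraries and 68.1 to 154 in WT libraries, and Sema3g, known from endothelium, over 14.8 to 67.1 in KO libraries and 18.4 to 58.3 in WT libraries. Their differences were -0.34 ± 0.35 for Sema3a and -0.36 ± 0.41 for Sema3g (SE).

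By position, 6 of the 7 class 3 genes lie near another, and Sema3g lies alone on chromosome 14. Sema3d, Sema3a, Sema3e and Sema3c lie on chromosome 5, from 12383385 (the start of Sema3d) to 17730268 (the end of Sema3c), and their transcripts have a GC content of 39.2% for Sema3d to 42.7% for Sema3c. All 4 had a negative difference. Sema3b and Sema3f lie on chromosome 9, at 107597674 to 107609229 and 107681500 to 107710475, and both had a positive difference. After splines of GC content and length were taken out of each library, the differences were -1.72 for Sema3d, -0.33 for Sema3a, -0.79 for Sema3e, -1.02 for Sema3c, 0.59 for Sema3b and 0.51 for Sema3f. The signs did not hold by prefix: Sema3a was at -0.82 within the libraries without the RESUB prefix, 1.00 within those with it and 0.09 with the prefix as a term, and Sema3f was at -0.13 within the libraries with it. The pattern was noticed after the values were seen and has no test.

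Class 4 semaphorins span the membrane and bind mainly plexins of the B type. Of the 6 measured, 4 were higher and 2 lower in KO tumours, with a median log2 difference of 0.06. Sema4f, known mostly from neurons and glia, lies at chr6:82911885-82939769 and had 12.6, 67.5, 16.9, 22.5 and 72.5 normalized counts in KO1 to KO5, against 7.48, 15.5, 15.5, 13.8 and 6.65 in WT1 to WT5. KO2 and KO5 were far above all others, and KO1 was within the WT range. The difference was 1.36 ± 0.51 (SE; 95% interval 0.26 to 2.45), with a limma adjusted p of 0.682. With sample weights it was 1.95, adjusted p = 0.0409, the lowest of a range that reached 0.9995 over the alternatives. It was 1.71 within the libraries without the RESUB prefix and 2.43 within those with it. Sema4f rested on 265 reads over the 10 libraries, and at such low counts the added 1 makes the log2 difference smaller.

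Sema4c, a ligand of plexin B2 and the class 4 gene with the highest level per kb, had 2145, 1236, 2522, 1868 and 1089.5 normalized counts in KO1 to KO5, against 1149, 812, 1294, 2438 and 988 in WT1 to WT5. WT4 was within the upper end of the KO libraries and the other WT libraries were in or below their lower end (0.44 ± 0.31, SE, limma adjusted p = 0.887). The difference was 0.93 within the libraries without the RESUB prefix and -0.27 within those with it. Sema4d, which is carried by T cells and binds plexin B1 and CD72, ranged over 397 to 859 normalized counts in KO libraries and 448 to 1302 in WT libraries. Sema4b, Sema4a and Sema4g differed by 0.12 ± 0.27, -0.02 ± 0.21 and 0.01 ± 0.36 (log2, SE), and Sema4d by -0.14 ± 0.28.

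Sema5a, a transmembrane semaphorin with thrombospondin repeats and the class 5 gene measured, had 344, 314, 201, 277 and 278 normalized counts in KO1 to KO5, against 327, 212, 385, 388 and 649 in WT1 to WT5. WT3, WT4 and WT5 were above every KO library, WT5 the furthest, and WT1 and WT2 were within the KO range (-0.40 ± 0.26, SE, limma adjusted p = 0.877). The Sema5a difference was -0.20 without WT5, -1.22 within the libraries without the RESUB prefix and -0.20 within those with it. Of the 4 class 6 genes, transmembrane ligands of A-type plexins, 2 were higher and 2 lower in KO tumours. Sema6d, a ligand of plexin A1 and the highest of the class per kb, had 828, 739, 726, 604 and 472 normalized counts in KO1 to KO5, against 627, 337, 659, 519 and 577 in WT1 to WT5. KO1 to KO3 were above every WT library and KO5 was below 4 of them (0.32 ± 0.22, SE, limma adjusted p = 0.879). The difference was 0.32 within the libraries without the RESUB prefix and -0.13 within those with it. Sema6a, Sema6b and Sema6c differed by 0.08 ± 0.36, -0.28 ± 0.26 and -0.29 ± 0.33 (log2, SE).

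The plexins, the receptors, had 5 members higher and 3 lower in KO tumours, all between -0.37 and 0.35 on the log2 scale, and 0 of 8 had an unadjusted limma p below 0.05. For 7 of 8 the 95% limma interval lay within 1 log2 unit of 0. That fit has no prefix term and counts WT2 and WT5 as separate libraries, so the interval cannot exclude larger differences. Plxna3, a receptor for class 3 semaphorins, was the exception, with -1.02 to 1.19. The Plxna3 difference was 0.12 within the libraries without the RESUB prefix and -1.35 within those with it. For Plxnb1, whose interval lay within 1 log2 unit, the same 2 values were 0.13 and -1.06. Plxnb2, a receptor of class 4 semaphorins, had 2911, 2936, 2583, 2368 and 1633 normalized counts in KO1 to KO5, against 2592, 2146, 2949.9, 5964 and 3181 in WT1 to WT5. WT4 was far above and KO5 below all others, and the other libraries overlapped (-0.37 ± 0.27, SE, limma adjusted p = 0.891). Without WT4 the Plxnb2 difference was -0.14, and it was -0.24 within the libraries without the RESUB prefix and -0.95 within those with it. Plxna4, a partner of neuropilin 1 in Sema3a signalling, had 124, 172, 104, 92.0 and 113 normalized counts in KO1 to KO5, against 111, 86.5, 68.9, 95.6 and 107 in WT1 to WT5. KO1, KO2 and KO5 were above the WT libraries, KO5 by little (0.35 ± 0.22, SE, limma adjusted p = 0.874). The Plxna4 difference was 0.15 within the libraries without the RESUB prefix and 0.33 within those with it. Plxnc1, the plexin that binds Sema7a, had 186 to 321 normalized counts in KO libraries and 169 to 268 in WT libraries, with a difference of 0.05 ± 0.19 (SE; 95% interval -0.37 to 0.47). Plxnd1, the receptor of Sema3e, ranged over 739 to 1472 in KO libraries and 630.2 to 2071 in WT libraries (0.13 ± 0.30). Plxnb1, the receptor of Sema4d, differed by -0.17 ± 0.36, and the A plexins Plxna1, Plxna2 and Plxna3 by -0.00 ± 0.33, 0.05 ± 0.26 and 0.08 ± 0.51.

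The 2 neuropilins had a median log2 difference of -0.07. Nrp2, which binds Sema3f and VEGF-C, had 3516, 4058, 2655, 3156 and 2233 normalized counts in KO1 to KO5, against 2833, 1736, 3069, 5151 and 4309 in WT1 to WT5. The WT libraries enclosed all KO libraries (-0.07 ± 0.28, SE, limma adjusted p = 0.982). The Nrp2 difference was -0.38 within the libraries without the RESUB prefix, -0.41 within those with it and -0.40 with the prefix as a term. Nrp1, which binds Sema3a and VEGF-A, ranged over 813 to 1469 normalized counts in KO libraries and 878 to 1405 in WT libraries (-0.08 ± 0.20, 95% interval -0.51 to 0.36), with a difference of 0.25 within the libraries without the RESUB prefix and -0.52 within those with it. The antisense RNA Plxna4os1 had 12.6 to 21.6 normalized counts in KO libraries and 4.85 to 25.5 in WT libraries (0.51 ± 0.42).

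Levels of different genes were compared as normalized counts per kb of merged exons. The highest means over all libraries were those of Plxnb2 (379 per kb), Sema4c (338), Sema7a (290), Nrp2 (276) and Sema3f (233), and the lowest those of Sema3d (5.31) and Sema4f (4.74). The ranges over the 10 libraries overlapped for all 29 neighbouring pairs. Since all genes were measured in the same libraries, overlapping ranges do not show that neighbours were equal. Differences between neighbours within libraries were not tested. Over all 435 pairs of members, 244 had ranges that did not overlap. Sema7a had a mean of 418 ± 164 per kb in KO tumours and 162 ± 55.2 in WT tumours (SD, n = 5 each), which put it at rank 1 of the family in KO tumours and at rank 6 in WT tumours, as a description. Its receptor Plxnc1 was at 28.6 per kb over all libraries. With the length of the longest transcript in place of merged exons, Nrp2 came to 487 per kb and took the first rank, both over all libraries and in KO tumours. By that length Sema7a was at rank 6 over all libraries, rank 3 in KO tumours and rank 8 in WT tumours.

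**Figure D3:**
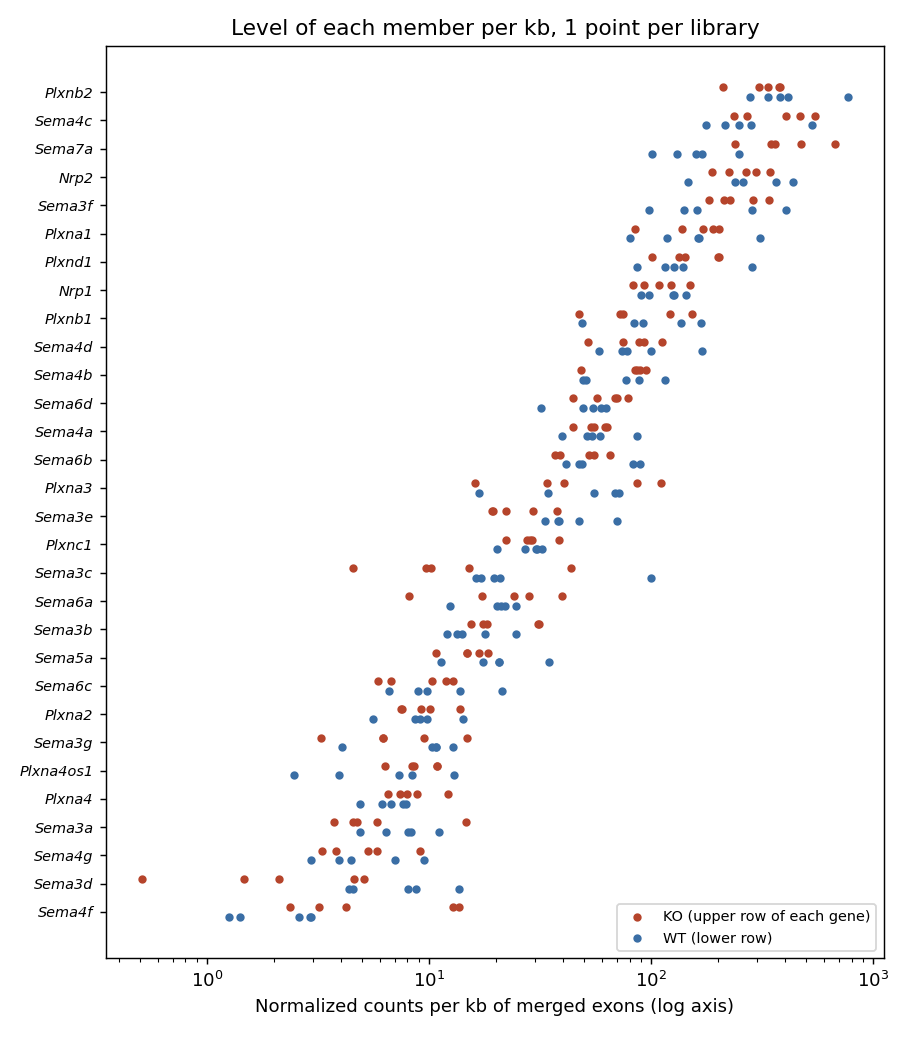
Normalized counts per kb of merged exons (horizontal log axis) for the 30 members, ordered by their mean over all libraries; points are libraries, with KO above WT in each row. Plxnb2, Sema4c, Sema7a, Nrp2 and Sema3f lead the order, and the points of neighbouring genes overlap throughout.

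The members also varied together by library, within each group. Among the 29 protein-coding members, KO5 was the lowest KO library for 19 and WT2 the lowest WT library for 18, while WT4 was the highest WT library for 15 and KO3 the highest KO library for 11. The mean deviation of these members from their own mean over the 10 libraries was -0.45 in KO5, -0.24 in WT2 and 0.39 in WT4 on the log2 scale, where that of all genes tested was -0.06, 0.03 and -0.02. In WT4 the 15 members with the higher GC content deviated by 0.56 and the 14 with the lower GC content by 0.21. In WT5 the 15 deviated by -0.24 and the 14 by 0.31. In KO5 the 15 deviated by -0.22 and the 14 by -0.70, and in WT2 the 15 by -0.33 and the 14 by -0.15. Over all genes tested, the correlation of a gene's deviation with its GC content was 0.52 in WT4 and -0.40 in WT5. It was -0.03 in KO5 and 0.18 in WT2. These correlations are a description across genes, which are not independent. Fibroblast markers (Col1a1, Col1a2, Pdgfra, Dcn and Lum, 5 of 5, none at 0) summed to 21174 normalized counts in KO5 and 33804 to 41339 in the other KO libraries, and to 75308 in WT4 and 27121 to 45915 in the other WT libraries. Their lowest WT library was WT3, with WT2 at 29541. Dendritic cell markers (5 of 5, none at 0) were lowest in KO5 (577) and WT2 (511) of their groups. Among WT libraries they were highest in WT4 (1038). Endothelium markers (6 of 6, none at 0) were likewise lowest in KO5 (2462) and WT2 (2091). Among WT libraries they were highest in WT1 (3732), with WT4 at 3452. Pericyte and smooth muscle markers (5 of 5, none at 0) were instead highest of their groups in KO5 (4140) and WT2 (11969). T cell markers were highest of their groups in KO5 (754) and WT4 (494). Macrophage markers were lowest of the KO group in KO5 (9130) but highest of the WT group in WT2 (13779). The part of these cell types, of GC content or of the RESUB prefix in this pattern was not tested. With GC content and length taken out, 20 members were higher and 10 lower, against 10034 higher and 7849 lower of all genes. The member median was then 0.19, where that of all genes was 0.04. Without this correction the member median was 0.13 within the libraries without the RESUB prefix and -0.43 within those with it, where KO5 is the single KO library.

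**Figure D4:**
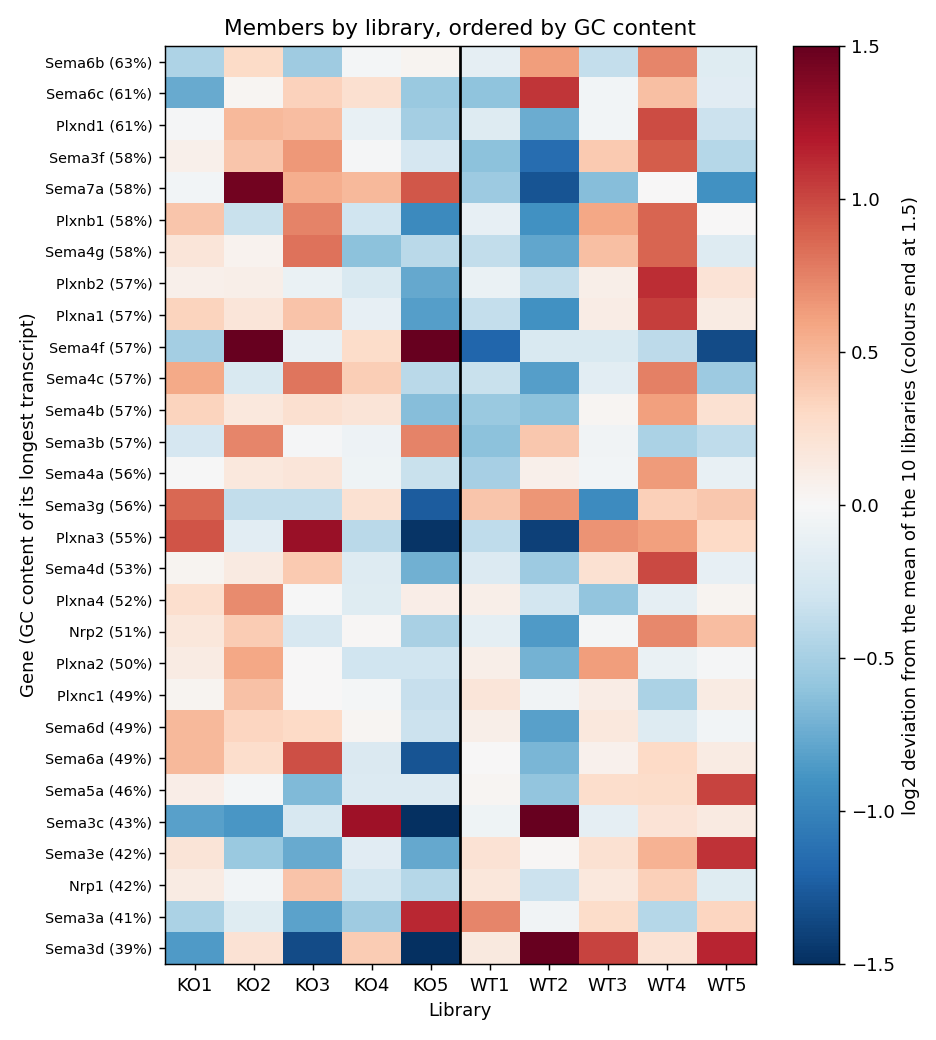
Deviation of each protein-coding member from its mean over the 10 libraries (colour, log2 units, ending at 1.5), with libraries across, KO left of WT, and genes ordered by GC content from high at the top. WT4 is red for most genes in the upper part, KO5 and WT2 are blue for most genes, and Sema7a is lower in WT2 and higher in KO2 than in any other library.

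The wider pathway was read from a list of 62 partners and effectors, chosen with earlier results known, of which 58 were in the table and tested. Of these, 27 were higher and 31 lower in KO tumours, with a median log2 difference of -0.01, and 0 had a limma adjusted p below 0.05. At an unadjusted limma p below 0.05, 1 of the 58 was higher (Pgf), where 2.82% of all genes were. Likewise 1 was lower (Vegfc), where 3.67% of all genes were, and nothing is read from these counts. By role, other receptors and co-receptors had 7 higher and 7 lower, other neuropilin ligands 2 higher and 3 lower, cytosolic effectors 15 higher and 19 lower and semaphorin-cutting proteases 3 higher and 2 lower. The integrin chains that bind Sema7a differed little: Itgb1 had 11516 to 19164 normalized counts in KO libraries and 12770.5 to 18505 in WT libraries (-0.01 ± 0.23, SE), and Itga1 had 707 to 1655 in KO libraries and 466 to 1430.1 in WT libraries (0.14 ± 0.29).

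Among the neuropilin ligands, Pgf, the placental growth factor, had 92.3, 133, 186, 111 and 189 normalized counts in KO1 to KO5, against 98.1, 62.8, 159, 75.3 and 57.6 in WT1 to WT5. WT1 and WT3 were within the KO range and 3 WT libraries were below it (0.69 ± 0.30, SE, limma adjusted p = 0.750). Vegfc, a lymphatic growth factor that binds neuropilin 2, had 75.5, 100.3, 75.9, 61.3 and 101 normalized counts in KO1 to KO5, against 132, 89.2, 110, 160.0 and 141 in WT1 to WT5. Only WT2 was within the KO range (-0.60 ± 0.22, SE, limma adjusted p = 0.682). Vegfa differed by 0.43 ± 0.22, with KO5 the highest library at 1809 normalized counts. Among receptors, Trem2 and Tyrobp, which pair with plexin A1 on myeloid cells, differed by 0.44 ± 0.22 and 0.64 ± 0.35, and Chl1, an adhesion molecule of the L1 family, by -0.76 ± 0.43. Chl1 was highest in KO4 and WT2, at 525 normalized counts in KO4 and 954 in WT2, the same libraries as for Sema3c. Rras2, a GTPase of the R-Ras kind, differed by 0.36 ± 0.21 and Adam17, a protease that sheds membrane proteins, by 0.26 ± 0.17, and the 6 genes named last had limma adjusted p from 0.786 to 0.874.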

How the data were processed

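The deposited table holds signal values, gene-level counts that the authors normalized, for 18047 genes in 10 libraries of RNA freed of ribosomal RNA; library primers carried molecular identifiers, per the labels' protocols, and whether they were used in counting is not given in the sources used here. Base calls used bcl2fastq 2.17 and mouse build GRCm38 was named, both per the submitters' processing notes; the aligner, the counter and its use of strand are not given in the sources used here. In each library 100% of values were whole multiples of 1 read (tolerance 0.0001), so reads were recovered.

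Symbols came from GENCODE M21 (17961 IDs had one, 86 did not). The 17975 genes averaging 10 or more normalized counts were tested with limma 3.58.1 (R 4.3.3, intensity trend) on log2(value + 1), no covariates, Benjamini-Hochberg adjustment over all tested genes and a threshold of 0.05. On recovered reads, edgeR 4.0.16 called 1 gene and DESeq2 1.42.0 called 121. The fitting step was checked on simulated data. Summaries and figures used Python 3.11.15 and matplotlib 3.10.9. The members and all lists were chosen with earlier results of these data known. The check of the knocked-out gene is not reported here. Values per library were given for Sema7a, for members whose groups do not overlap, for the 8 others with the smallest limma p and for the highest member per kb of each class; of the pathway list, the 8 smallest p, Itgb1 and Itga1 were named. WT2 and WT5, which share a library number, had a chi-square per degree of freedom of 142, where other WT pairs had 38.3 to 177. WT2 was at 86.7 or more from every WT library, so this value cannot tell whether WT2 and WT5 come from 1 tumour. They were counted as separate libraries, and averaging them was an alternative setting. Exonic bases are shared with another annotated gene by 7 members, most by Plxna1 (970 bases, Gm26811, opposite strand) and Sema4c (334 bases, D430040D24Rik, opposite strand); without strand such reads cannot be told apart. Interval bounds cover the spread of the libraries, and no interval was made from counts.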

Additional observations from a re-analysis of the deposited data

Results flagged for a closer look

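In 60 groups of 5 libraries (30 members, KO and WT each), the gap of the highest or lowest library to its nearest neighbour was compared with the whole range of the group. The gap was above Dixon's limit for 5 samples in 7 groups, or 11.7%. That limit flags about 1 in 20 groups of independent, normally distributed values. Here the groups share the same 10 libraries and hold counts on a linear scale, and the share among all genes is not given. The flags therefore list values and are no result about the family. In the KO group, Sema3c had 311 normalized counts in KO4 against 32.3 to 108 in the other KO libraries. Sema3a had 203 in KO5 against 52.0 to 80.7, and Sema4b had 273 in KO5 against 476 to 537. In the WT group, Sema3c had 712 in WT2 against 117 to 148 in the other WT libraries. Sema3g had 18.4 in WT3 against 47.1 to 58.3. The plexins Plxnb2, with 5964 against 2146 to 3181, and Plxnd1, with 2071 against 630.2 to 1021, both stood out in WT4.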

How the results depend on the processing

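The count of all genes called, 1, was 121 with DESeq2, 408 with sample weights, 52 within the libraries without the RESUB prefix, 0 within those with it, 0 without WT2, WT3 and WT5, 0 with WT2 and WT5 averaged, and 0 to 3 when single libraries were left out (3 without WT2). The count of members called, 0, was 1 with DESeq2 and 2 with sample weights, and 0 under all other settings. The member median was -0.43 within the RESUB libraries, and the pathway median -0.11 without WT2, WT3 and WT5. Within the RESUB libraries 11 of the 30 members had the opposite sign, among them Sema3a (1.00), Plxna3 (-1.35), Sema6a (-1.21), Plxnd1 (-0.51), Sema4b (-0.50), Sema4c (-0.27), Sema6d (-0.13) and Sema3f (-0.13); within the other libraries 7 had, and with the prefix as a term 7. The Nrp2 difference was -0.41 within the RESUB libraries, -0.40 with the prefix as a term, -0.38 within the other libraries, -0.32 without WT2, WT3 and WT5, 0.10 with GC content and length taken out, 0.16 with sample weights, and -0.29 to 0.11 when single libraries were left out. The cause was not tested. A filter of 50 normalized counts left out 5 members (Sema4f, Sema3d, Sema3g, Sema4g and Plxna4os1). GC content was read from each gene's longest transcript.

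The replicate numbers did not pair the libraries: deviations of same-numbered libraries correlated at 0.02, 0.10, 0.52, 0.03 and -0.23, and 1 of the 5 KO libraries correlated best with its own number. With the replicate block, 1 gene and 0 members were called and the Sema7a difference was 1.35. The within-prefix fits have 1 library in an arm, which is assumed to vary like the others. Sema4f (265 reads) and Plxna4os1 (164 reads over all libraries) had the least depth.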
